A study of Mus musculus with 12 samples.

Results

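The phagocyte NADPH oxidase was followed through 5 of its subunit genes, Cybb, Cyba, Ncf1, Ncf4 and Rac2, chosen by name from the 38924 Ensembl gene IDs of the deposited expression table. All 5 were found and passed the filter on low values, which kept 12718 genes with at least 1 TPM (a length-corrected relative abundance that sums to the same total in each library) in at least 4 libraries. Bulk RNA-seq was read for 12 libraries of cells sorted from the marrow of wild-type female C57Bl/6J mice, an inbred laboratory strain. Granulocyte-monocyte progenitors (GMP) were lineage-negative, Sca1-negative and cKit-positive with CD34 and the Fc gamma receptor. Common lymphoid progenitors (CLP) had little Sca1 and little cKit and carried IL7Ra and Flk2. Lymphoid-primed multipotent progenitors (LMPP) carried Sca1, cKit and CD34 with high Flk2 and no CD150. Each type has 4 libraries, 2 in each of 2 batches named in the sample titles. All marrow was depleted of cells with mature lineage markers, and all groups share genotype, strain and sex. No source used here gives the age of the mice behind the bulk libraries. Whether the replicates are separate animals is not stated, and a p-value here covers only the scatter between libraries, which may be technical.

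The oxidase moves electrons from NADPH across a membrane to oxygen and so makes superoxide, the first step of the oxidative burst with which neutrophils and macrophages kill microbes. Its membrane core is a flavocytochrome of the catalytic subunit encoded by Cybb and the partner chain encoded by Cyba. The organizer encoded by Ncf1, the phosphoinositide-binding subunit encoded by Ncf4 and the GTPase Rac2 wait in the cytosol and join the core when the cell is stimulated. Loss of either core chain, or of the product of Ncf1 or Ncf4, causes chronic granulomatous disease in humans. The genes are known to be switched on as myeloid cells mature.

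Libraries that stand apart touch several results. The summed level of 12 mature neutrophil markers (S100a8, S100a9, Ltf, Camp, Ngp, Lcn2, Retnlg, Ly6g, Mmp8, Mmp9, Cxcr2 and Chil3) was 12560 TPM in CLP batch 2 replicate 1 and 27120 TPM in LMPP batch 2 replicate 1. In the other CLP libraries it was 17.6 to 2021 TPM, in the other LMPP libraries 37.1 to 1882 TPM, and in GMP 63.6 to 1483 TPM. The same 2 libraries had the highest sums of red cell markers, 13450 and 28210 TPM. The libraries labelled CLP in batch 2 also had 8.91 and 16.98 TPM of Flt3, the gene of the gate protein Flk2, against 138 and 146 TPM in CLP of batch 1, and B lineage marker sums of 3850 and 4770 TPM against 702 and 30.2 TPM. In bulk samples, fewer cells of a type and less RNA per cell cannot be told apart. Over all tested genes the median log2 difference was -0.24 for GMP minus LMPP, -0.17 for CLP minus LMPP and -0.09 for GMP minus CLP, and median-ratio scaling moved these medians to -0.02, -0.02 and -0.01. Differences of single genes are to be read beside those medians.

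All 5 subunit transcripts were present in all 12 libraries, lymphoid progenitors included. Of the 5, Cyba was higher in GMP than in either other type, and Rac2 was higher in CLP than in LMPP. Ncf1 and Ncf4 passed the test in none of the comparisons between types. Cybb, the catalytic subunit, varied most between libraries of the same type, and its calls depended on which libraries were used. The Cyba calls did too, being lost in 9 of 12 fits without 1 library for GMP minus LMPP and in 7 of 12 for GMP minus CLP.

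**Figure D1:**
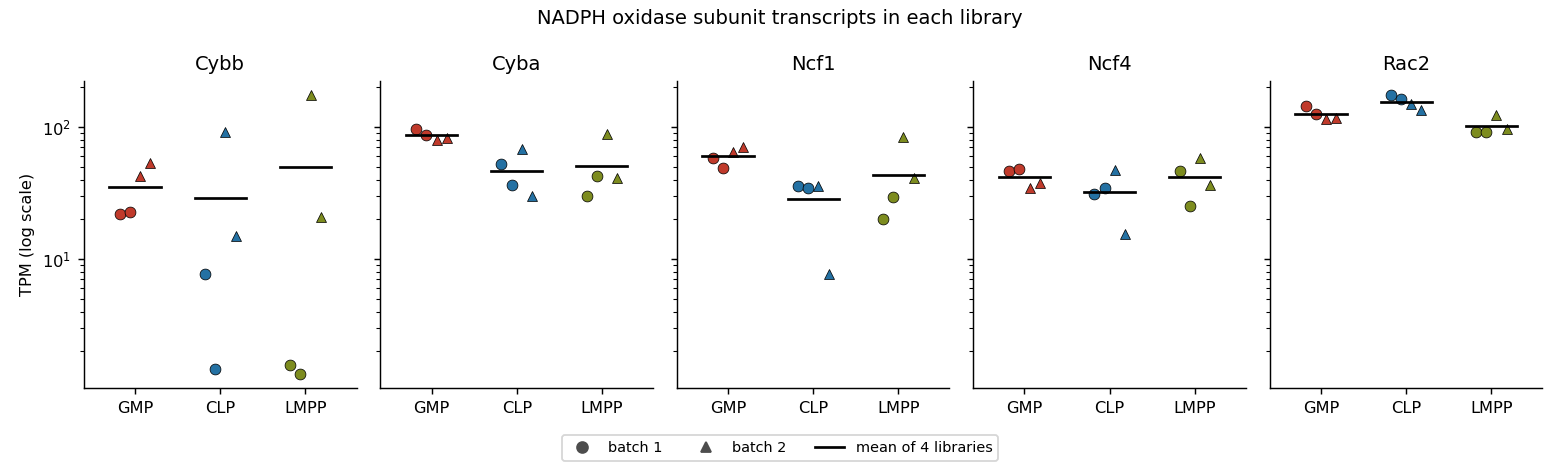
TPM on a log axis of each subunit gene in each library, with GMP, CLP and LMPP from left to right, circles for batch 1, triangles for batch 2 and a bar at the mean of 4 libraries. Cyba and Ncf1 show GMP above CLP without overlap, Rac2 shows CLP above LMPP without overlap, and Cybb runs over 1.34 to 174.76 TPM in LMPP.

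Cyba (ENSMUSG00000006519, mm10 chr8:122424776-122432930, minus strand) encodes the chain that anchors the cytosolic subunits and stabilizes the catalytic one. It had 96.2, 87.0, 79.8 and 82.2 TPM in GMP, 52.8, 36.1, 67.7 and 29.8 TPM in CLP, and 29.9, 42.8, 87.9 and 41.3 TPM in LMPP. The GMP libraries all lay above the CLP libraries, while LMPP batch 2 replicate 1 reached into the GMP range. The means were 86.3 ± 7.24 TPM in GMP, 46.6 ± 17.1 TPM in CLP and 50.5 ± 25.6 TPM in LMPP (SD, n = 4 each).

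Differences were tested with limma on log2(TPM + 1), with cell type and batch as terms, and adjusted by Benjamini-Hochberg over all 12718 genes; called genes are those with a two-sided adjusted p below 0.05. On this scale the change of a gene near 0 is understated. Cyba was higher in GMP than in LMPP by 0.87 (SE 0.30, limma adjusted p = 0.0475), and it was the only one of the 5 subunit genes called there, where 7.62% of all tested genes were called higher and 21.3% lower. It was higher in GMP than in CLP by 0.94 (SE 0.30, limma adjusted p = 0.0399), again 1 of 5, where 9.96% of all genes were called higher and 13.9% lower. CLP minus LMPP was -0.07 (SE 0.30, adjusted p = 0.908 by limma).

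Both Cyba calls lay close to the threshold. In batch 1 alone the differences were 1.33 for GMP minus LMPP (limma adjusted p = 0.00794) and 1.05 for GMP minus CLP (adjusted p = 0.0191), and in batch 2 alone 0.42 (adjusted p = 0.605) and 0.84 (adjusted p = 0.296). Without the 2 libraries rich in haemoglobin and neutrophil markers they were 1.204 (adjusted p = 0.00230) and 1.17 (adjusted p = 0.00254). The GMP minus LMPP call was lost when any GMP library, either batch 1 library of CLP or of LMPP, or LMPP batch 2 replicate 3 was left out, with differences of 0.68 to 0.95 and limma adjusted p from 0.0517 to 0.144. The GMP minus CLP call was lost without any GMP library, CLP batch 1 replicate 2, CLP batch 2 replicate 2 or LMPP batch 1 replicate 2, with differences of 0.70 to 1.02 and adjusted p from 0.0530 to 0.106. With the replicate number as a block the GMP minus LMPP difference was 0.92 (adjusted p = 0.0715).

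Cybb (ENSMUSG00000015340, mm10 chrX:9435252-9487771, minus strand) carries the flavin and haem groups through which the electrons pass. It had 22.0, 22.7, 42.5 and 53.1 TPM in GMP, 7.75, 1.46, 91.1 and 14.8 TPM in CLP, and 1.58, 1.34, 174.8 and 20.7 TPM in LMPP, the first 2 values of each type being batch 1. In CLP and LMPP both batch 2 libraries lay above both batch 1 libraries, and replicate 1 of batch 2 was far above the rest. The highest library was 2.41 times the lowest in GMP, 62.4 times in CLP and 130.4 times in LMPP. After type and batch were fitted, the residual SD of Cybb stood at the 98.9th percentile of all tested genes.

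The means hid this spread: 35.1 ± 15.3 TPM in GMP, 28.8 ± 41.9 TPM in CLP and 49.6 ± 83.9 TPM in LMPP (SD, n = 4 each). On the log2 scale GMP minus LMPP was 1.45 (SE 0.82, limma adjusted p = 0.204), positive although the LMPP mean is the higher one, since 1 LMPP library carries that mean. GMP minus CLP was 1.34 (adjusted p = 0.261) and CLP minus LMPP was 0.11 (adjusted p = 0.949), and none of the 3 was called.

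Within batch 1 the GMP libraries averaged 22.3 TPM, against 4.61 TPM in CLP and 1.46 TPM in LMPP, and lay above both. That sets 2 libraries against 2, and the share of all genes so separated was not computed. Cyba, Ncf1, Ncf4 and Rac2 also lay higher in GMP than in LMPP there without overlap, so the separation was not particular to Cybb. The batch 1 differences were 3.25 for GMP minus LMPP (SE 0.53, limma adjusted p = 0.00603) and 2.33 for GMP minus CLP (adjusted p = 0.0203). In batch 2 they were -0.35 (adjusted p = 0.870) and 0.35 (adjusted p = 0.870). The difference between the batches itself, -3.60 for GMP minus LMPP, was not called (adjusted p = 0.448 by limma), and 0.0157% of all genes were.

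Leaving out LMPP batch 2 replicate 1 alone made GMP minus LMPP 2.34 (limma adjusted p = 0.0238). Leaving out CLP batch 2 replicate 1 as well gave 2.42 for GMP minus LMPP (adjusted p = 0.00552) and 1.96 for GMP minus CLP (adjusted p = 0.0153). Between batches of the same type, Cybb was higher in batch 2 by 4.65 in LMPP (limma adjusted p = 0.0273), where 2.19% of genes were called higher, and by 3.04 in CLP (adjusted p = 0.0385), where 21.3% were. Within GMP the batch difference was 1.06 (adjusted p = 0.595). The LMPP batch call was lost without either GMP batch 2 library, either LMPP batch 1 library or LMPP batch 2 replicate 1 (adjusted p from 0.0508 to 0.142), and the difference was 3.15 without LMPP batch 2 replicate 1. The CLP batch call was lost when any GMP library, either LMPP batch 1 library, CLP batch 1 replicate 2 or CLP batch 2 replicate 1 was left out (adjusted p from 0.0554 to 0.241), with 1.77 without CLP batch 2 replicate 1. Of the 5 subunit genes, Cybb was the only one called between batches in CLP or LMPP, where 32.0% and 4.61% of all genes were called in either direction, and none was in GMP, where 8.22% of all genes were called in either direction.

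Neutrophil transcripts moved with Cybb in CLP and LMPP. Neutrophils hold abundant oxidase, and in these 8 libraries the 2 with the highest neutrophil marker sums had the highest Cybb. Set against 1000 TPM of the 12 neutrophil markers, Cybb amounted to 7.26 and 7.33 TPM in CLP of batch 2 and to 6.45 and 11 TPM in LMPP of batch 2. The batch 1 values were 43.2 and 82.8 TPM in CLP and 7.17 and 36.1 TPM in LMPP. Ly6g, a defining surface marker of neutrophils, had 46.3 and 11.1 TPM in CLP of batch 2 and 112 and 1.58 TPM in LMPP of batch 2, and was listed at 0 in all libraries of GMP and in batch 1 of CLP and LMPP.

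GMP did not share that order. In GMP, Cybb was 17.5 and 15.3 TPM in batch 1 and 668 and 156 TPM in batch 2 per 1000 TPM of neutrophil markers. The neutrophil sum was 1255 and 1483 TPM in GMP of batch 1, where Cybb was lower, and 63.6 and 342 TPM in GMP of batch 2, where it was higher. The summed level of 9 monocyte and macrophage markers ran the other way in GMP, with 322 and 330 TPM in GMP of batch 1 and 673 and 720 TPM in GMP of batch 2. In CLP that sum went against Cybb, with 320 and 312 TPM in batch 1 and 241 and 87.3 TPM in batch 2. Mpeg1 (158 and 167 TPM) and Ly86 (119 and 102 TPM) made up most of it in CLP of batch 1. In LMPP it was 114 and 167 TPM in batch 1 and 265 and 206 TPM in batch 2. Within batch 1, neutrophil sums were 180 and 17.6 TPM in CLP and 220 and 37.1 TPM in LMPP, so neutrophil sums, like Cybb, were higher in GMP there. In batch 1 alone, 5 of the 12 neutrophil markers were called higher in GMP than in LMPP (median log2 difference 1.93) and 9 higher than in CLP (median 2.03) by limma, in the same setting as the batch 1 calls of Cybb. Of all 12718 tested genes, 901 were called higher and 2712 lower than in LMPP there, and 1274 higher and 1728 lower than in CLP. The part of other cells in the Cybb values was not tested.

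**Figure D2:**
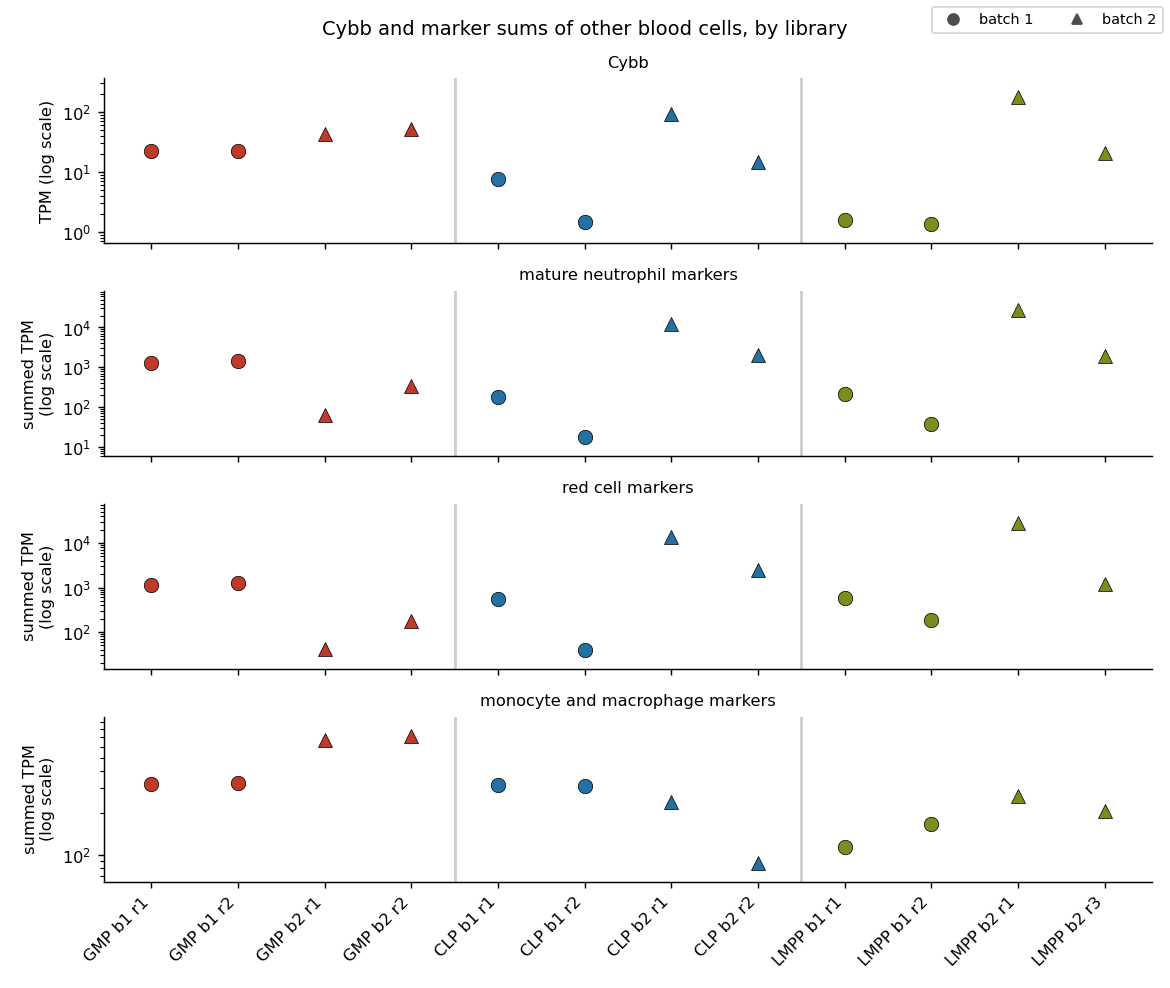
Cybb in TPM (top) and the summed TPM of mature neutrophil, red cell, and monocyte and macrophage markers in each library, all on log axes, with GMP, CLP and LMPP from left to right (b, batch; r, replicate), circles for batch 1 and triangles for batch 2. In CLP and LMPP the highest Cybb values, 91.1 and 174.8 TPM, stand in the libraries with 12560 and 27120 TPM of neutrophil markers, while in GMP Cybb is higher in the batch with fewer of them.

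Ncf1 (ENSMUSG00000015950, mm10 chr5:134220053-134229625, minus strand) encodes the organizer that, once phosphorylated, docks the cytosolic complex on the Cyba chain. It had 58.0, 48.6, 64.3 and 70.4 TPM in GMP, 35.9, 34.5, 35.6 and 7.64 TPM in CLP, and 20.1, 29.5, 83.7 and 41.2 TPM in LMPP. All GMP libraries lay above all CLP libraries, a separation seen in 9.12% of tested genes, and Ncf1 and Cyba were the 2 of 5 subunit genes with it. The means were 60.3 ± 9.31 TPM in GMP, 28.4 ± 13.9 TPM in CLP and 43.6 ± 28.1 TPM in LMPP (SD, n = 4 each).

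GMP minus CLP was 1.26 for Ncf1 (SE 0.49, limma adjusted p = 0.0798), which missed the threshold and came to 1.48 (adjusted p = 0.0437) without the 2 haemoglobin-rich libraries. GMP minus LMPP was 0.64 (adjusted p = 0.343), with 1.09 in batch 1 alone (adjusted p = 0.00965) and 0.19 in batch 2 alone (adjusted p = 0.880). CLP minus LMPP was -0.62 (adjusted p = 0.440), with 0.51 in batch 1 and -1.75 in batch 2. The sign therefore turned between batches, and the test of that turn gave an adjusted p of 0.0989 by limma, in a contrast where 8.58% of all genes were called in either direction. For GMP minus CLP the batches differed in 5.48% of genes, and none of the 5 subunit genes was among them.

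Ncf4 (ENSMUSG00000071715, mm10 chr15:78244801-78262580, plus strand) encodes the subunit that binds phosphatidylinositol 3-phosphate on phagosomes. It had 46.7, 47.8, 34.4 and 37.4 TPM in GMP, 31.3, 34.4, 47.0 and 15.4 TPM in CLP, and 46.1, 25.1, 58.3 and 36.5 TPM in LMPP. The 3 types overlapped. The means were 41.6 ± 6.65 TPM in GMP, 32.0 ± 13 TPM in CLP and 41.5 ± 14.1 TPM in LMPP (SD, n = 4 each), and the differences were 0.05 (SE 0.32) for GMP minus LMPP, -0.40 for CLP minus LMPP and 0.45 for GMP minus CLP, with limma adjusted p of 0.915, 0.445 and 0.328.

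Rac2 (ENSMUSG00000033220, mm10 chr15:78559167-78572783, minus strand) encodes the blood-cell form of the GTPase Rac, which activates the oxidase and also steers the actin skeleton. It had 143.5, 125.7, 114.7 and 117.1 TPM in GMP, 174.2, 161.6, 150.1 and 135.0 TPM in CLP, and 91.8, 91.7, 122.9 and 97.1 TPM in LMPP. The CLP libraries all lay above the LMPP libraries, which 2.27% of tested genes did. GMP overlapped with both other types when batches were pooled, and lay below CLP within each batch. The latter sets 2 libraries against 2, and the share of all genes so separated was not computed. The means were 125 ± 13.1 TPM in GMP, 155 ± 16.7 TPM in CLP and 101 ± 14.9 TPM in LMPP (SD, n = 4 each).

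Rac2 was higher in CLP than in LMPP by 0.62 (SE 0.14, limma adjusted p = 0.0156), the only one of the 5 subunit genes called, where 2.8% of all tested genes were called higher and 7.23% lower. In batch 1 alone it was 0.86 (adjusted p = 0.0134) and in batch 2 alone 0.38 (adjusted p = 0.172). The call was lost without LMPP batch 1 replicate 1 (0.56, adjusted p = 0.0549), with only CLP and LMPP in the fit, and with the replicate number as a block (0.65, adjusted p = 0.0850). GMP minus LMPP was 0.31 (SE 0.14, adjusted p = 0.101), and reached 0.58 (adjusted p = 0.0127) under median-ratio scaling and 0.44 (adjusted p = 0.0239) without LMPP batch 2 replicate 1. GMP minus CLP was -0.31 (adjusted p = 0.123 by limma). Of 7 tested B lineage markers 6 were also called higher in CLP than in LMPP, and their part in this result was not tested. By batch, 0 of 7 were called in batch 1 alone and 7 of 7 in batch 2 alone, beside 273 and 609 of all 12718 genes called higher. The Rac2 difference was the larger in batch 1. Their sum was 702 and 30.2 TPM in CLP of batch 1, where Rac2 was 174.2 and 161.6 TPM.

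The 5 genes kept a fixed order in GMP only in part. Rac2 stood above Cyba, Cyba above Ncf1 and Ncf1 above Ncf4 without overlap between their TPM ranges in GMP, while Ncf4 and Cybb overlapped. The summed level of the 5 was 366, 332, 336 and 360 TPM in GMP, 302, 268, 392 and 203 TPM in CLP, and 190, 191, 528 and 237 TPM in LMPP. GMP was the even group, and the single LMPP library at 528 TPM was above all of them.

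The proportions between subunits shifted with batch as well. Cybb over Cyba, the ratio of the 2 chains that pair in the membrane, was 0.229, 0.260, 0.533 and 0.646 in GMP libraries, 0.147, 0.0405, 1.35 and 0.498 in CLP libraries, and 0.0528, 0.0313, 1.99 and 0.502 in LMPP libraries. Cybb exceeded Cyba in only the 2 libraries richest in neutrophil markers. Rac2 made up 36.9, 35.5, 28.9 and 27.0% of the summed TPM of Rac1 and Rac2 in GMP libraries, 47.3, 47.1, 30.6 and 29.3% in CLP libraries, and 30.2, 30.1, 33.9 and 29.5% in LMPP libraries. The share was high in CLP of batch 1 and at the level of the other types in CLP of batch 2, where Rac1 was 341 and 326 TPM, against 194 and 181 TPM in batch 1.

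**Figure D3:**
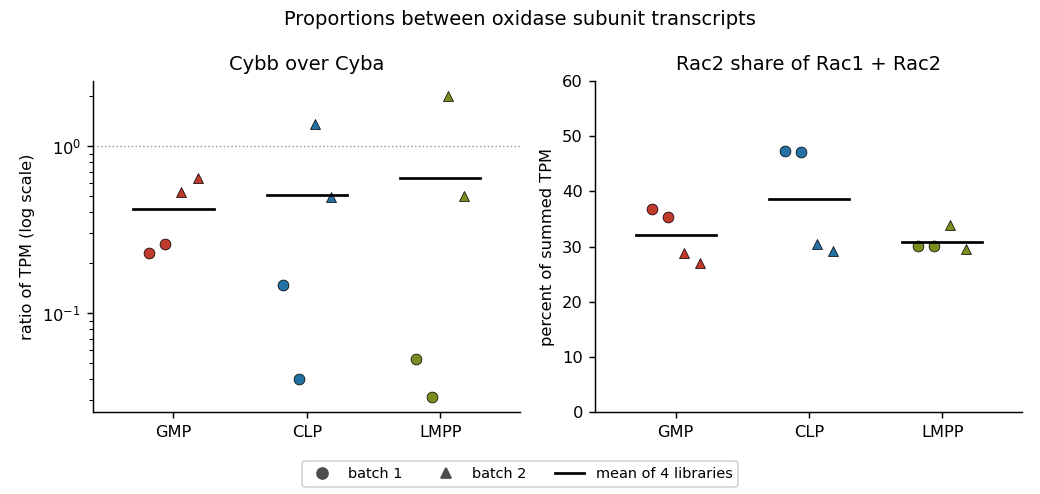
Left, the ratio of Cybb to Cyba TPM in each library on a log axis with a dotted line at 1; right, Rac2 as a percent of the summed TPM of Rac1 and Rac2; GMP, CLP and LMPP from left to right, circles for batch 1, triangles for batch 2, bars at the mean of 4 libraries. The ratio runs over 0.0313 to 1.99 in LMPP and over 0.229 to 0.646 in GMP, and the Rac2 share is highest in the batch 1 libraries of CLP, at 47.3 and 47.1%.

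The partners of the oxidase read here number 5: the ubiquitous Rac1, Cybc1 (a chaperone of the flavocytochrome), Hvcn1 (the proton channel that balances the charge of the electrons), Rap1a (a GTPase found with the flavocytochrome) and Arhgdib (which holds Rac proteins in the cytosol). Of these 5, Hvcn1 and Arhgdib were called higher in GMP than in LMPP and than in CLP, and 0 were called lower. Of all tested genes, 7.62% were called higher and 21.3% lower against LMPP, and 9.96% and 13.9% against CLP. Between CLP and LMPP 0 were called by limma, with 1 of 5 at an unadjusted p under 0.05. In that comparison 2.8% of all genes were called higher and 7.23% lower. The median log2 difference over the 5 was 0.25 for GMP minus LMPP, 0.16 for CLP minus LMPP and 0.09 for GMP minus CLP.

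Hvcn1 had the largest difference between types of the 10 subunit and partner genes with both batches fitted, while in batch 1 alone that of Cybb was larger. It had 29.8, 30.4, 31.2 and 34.6 TPM in GMP, 6.96, 4.97, 16.8 and 10.04 TPM in CLP, and 3.25, 3.51, 13.2 and 5.30 TPM in LMPP. GMP stood above both other types without overlap, as 7.76% of tested genes did against LMPP and 9.12% against CLP. GMP minus LMPP was 2.33 (SE 0.29, limma adjusted p = 1.712e-04) and GMP minus CLP 1.72 (adjusted p = 0.00124), with 2.83 and 2.17 in batch 1 alone and 1.84 (adjusted p = 0.0596) and 1.27 (adjusted p = 0.121) in batch 2 alone. Both calls held without each of the 12 libraries in turn.

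Arhgdib averaged 2111 ± 475 TPM in GMP, 1558 ± 670 TPM in CLP and 1473 ± 572 TPM in LMPP (SD, n = 4 each), the highest level of the 10 genes. GMP minus LMPP was 0.56 (limma adjusted p = 0.0200) and GMP minus CLP 0.52 (adjusted p = 0.0338). The first was lost without replicate 1 of batch 1 in GMP or in LMPP, or without LMPP batch 2 replicate 3 (adjusted p from 0.0508 to 0.0694). The second was lost without GMP batch 1 replicate 1 or 2, GMP batch 2 replicate 2, or CLP batch 1 replicate 1 or 2 (adjusted p from 0.0668 to 0.103). Cybc1 was 25.7, 22.3, 25.6 and 25.7 TPM in GMP, 28.4, 31.2, 32.8 and 43.6 TPM in CLP, and 24.0, 24.6, 24.0 and 22.4 TPM in LMPP. CLP stood above both other types without overlap for Cybc1, a separation of 2.27% of genes against LMPP and, with GMP the lower type, of 11.8% against GMP. Neither difference was called (CLP minus LMPP adjusted p = 0.0531, GMP minus CLP adjusted p = 0.0507, by limma).

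**Figure D4:**
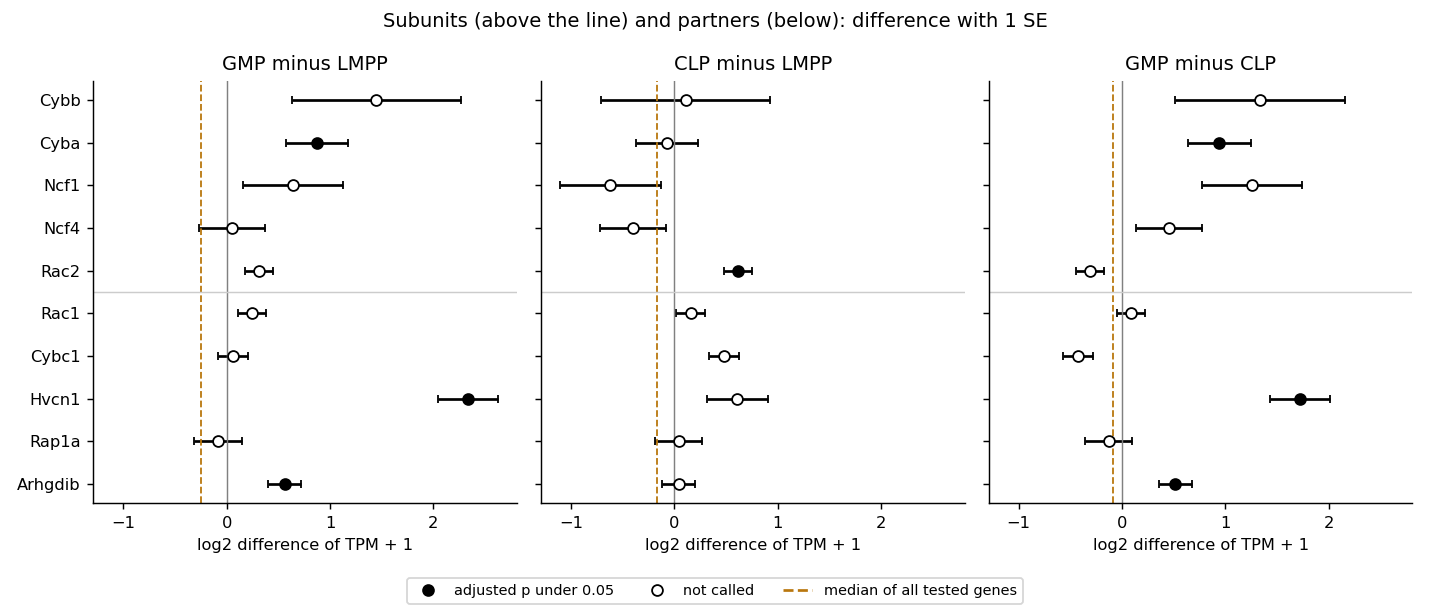
Log2 difference of TPM + 1 with 1 SE for the 5 subunit genes (above the grey line) and their 5 partners (below), for GMP minus LMPP, CLP minus LMPP and GMP minus CLP; filled points are called at a limma adjusted p under 0.05 and the dashed line is the median of all tested genes. Hvcn1 lies farthest to the right in both comparisons of GMP, at 2.33 and 1.72, and Rac2 is the only filled point for CLP minus LMPP, at 0.62.

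Genes listed for the supply of NADPH, the electron donor of the oxidase, were mostly higher in GMP. Only some of the listed enzymes, G6pdx and Pgd among them, make NADPH in their own reaction. Of 9 listed genes, 8 were tested (Me1 was not), and 7 of them were called higher in GMP than in LMPP and 0 lower, Rpia being the gene not called, against 7.62% and 21.3% of all tested genes. Against CLP, 6 were called higher in GMP and 1, Pgls, lower, against 9.96% and 13.9%. Primary granule genes and monocyte and macrophage markers were also higher in GMP, with median log2 differences of 3.92 and 1.11 against LMPP and 6.38 and 1.32 against CLP, and their part in this result was not tested. Between CLP and LMPP, Pgls was called, higher in CLP, and the other 7 were not. There 2.8% of all genes were called higher and 7.23% lower. The median log2 difference of the 8 was 0.88 for GMP minus LMPP, -0.17 for CLP minus LMPP and 1.01 for GMP minus CLP.

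G6pdx, the entry enzyme of the pentose phosphate pathway, had 72.2, 67.2, 153 and 172 TPM in GMP, 16.9, 21.3, 81.6 and 42.0 TPM in CLP, and 31.8, 31.3, 112 and 64.1 TPM in LMPP. Pgd, the second NADPH-making enzyme of that pathway, had 124, 109, 210 and 217 TPM in GMP, 25.9, 30.6, 77.3 and 60.2 TPM in CLP, and 27.8, 35.3, 93.8 and 42.0 TPM in LMPP. Idh1, the cytosolic isocitrate dehydrogenase, had 53.4, 62.3, 97.4 and 95.0 TPM in GMP, 8.36, 4.58, 27.1 and 32.6 TPM in CLP, and 14.9, 20.8, 29.3 and 17.2 TPM in LMPP. For Pgd and Idh1 the GMP libraries lay above all others, a separation seen in 7.76% of tested genes against LMPP and 9.12% against CLP. For G6pdx replicate 1 of batch 2 in CLP and in LMPP lay above the batch 1 libraries of GMP.

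GMP minus LMPP was 1.85 for Idh1 (SE 0.33), 1.80 for Pgd (SE 0.21) and 1.02 for G6pdx (SE 0.22), with limma adjusted p of 0.00177, 1.256e-04 and 0.00460. GMP minus CLP was 2.34, 1.82 and 1.64, with adjusted p of 4.002e-04, 1.145e-04 and 2.443e-04. Pgd and Idh1 were called under every one of 23 alternative settings in both comparisons, and G6pdx was not called in batch 2 alone or without the batch term. In batch 2 alone 2 of the 8 genes were called higher than in LMPP and 3 higher than in CLP, beside 324 and 628 of all 12718 tested genes. Pgls, the lactonase between G6pdx and Pgd, differed from the others: GMP minus CLP was -0.66 (adjusted p = 0.0173), lost without GMP batch 1 replicate 2, GMP batch 2 replicate 1 or CLP batch 1 replicate 1, and CLP minus LMPP was 1.49 (adjusted p = 5.638e-04).

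**Figure D5:**
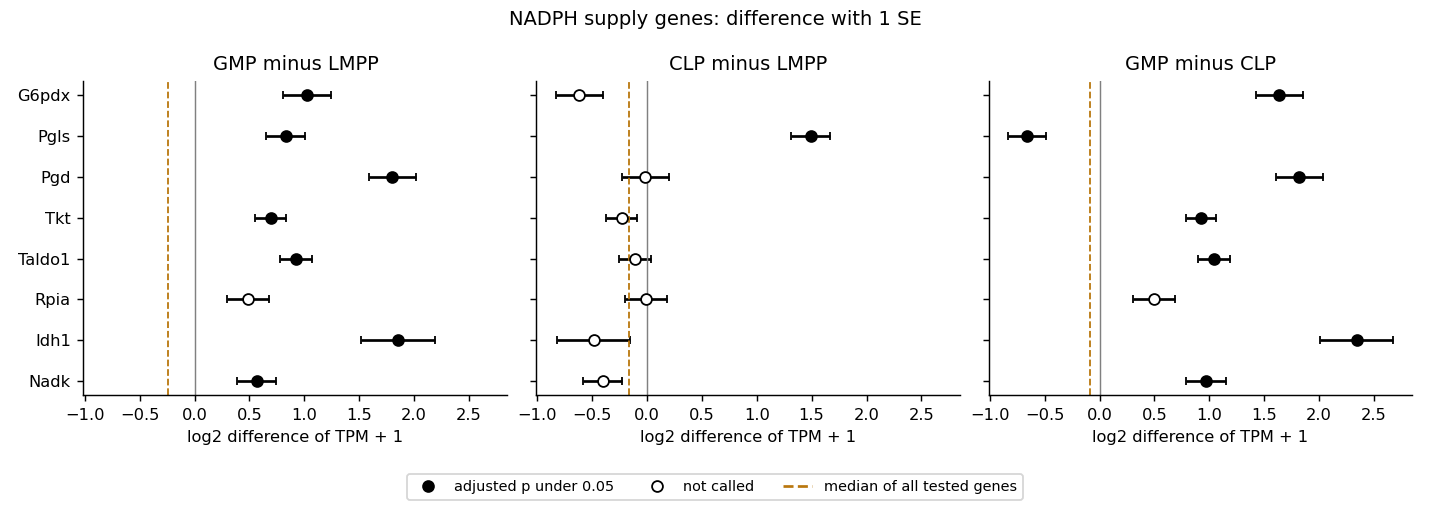
Log2 difference of TPM + 1 with 1 SE for the 8 tested genes of NADPH supply in GMP minus LMPP, CLP minus LMPP and GMP minus CLP; filled points are called at a limma adjusted p under 0.05 and the dashed line is the median of all tested genes. In GMP minus LMPP 7 of 8 points are filled and to the right, led by Idh1 at 1.85 and Pgd at 1.80, and Pgls alone lies to the left in GMP minus CLP, at -0.66.

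Transcription factors known to act on oxidase genes were split. Of 12 listed factors, 11 were tested (Cebpb was not). In GMP against LMPP 3 were called higher (Spi1, Cebpa and Cebpe) and 7 lower, with a median log2 difference of -0.83. There 7.62% of all genes were called higher and 21.3% lower. In GMP against CLP the same 3 were higher and Irf1, Irf2 and Elf1 lower, and in CLP against LMPP 0 were higher and Meis1, Hoxa10 and Cebpa lower. The shares of all genes called higher and lower were 9.96% and 13.9% in the first, and 2.8% and 7.23% in the second. Spi1, which encodes the ETS factor PU.1, a known activator of CYBB, NCF1 and NCF4 in human myeloid cells, had 105, 78.5, 60.5 and 65.0 TPM in GMP, 30.9, 39.8, 22.7 and 11.6 TPM in CLP, and 43.3, 35.9, 32.0 and 42.6 TPM in LMPP.

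GMP stood above both other types for Spi1 without overlap, as 7.76% of tested genes did against LMPP and 9.12% against CLP. GMP minus CLP was 1.61 (SE 0.24, limma adjusted p = 5.677e-04) and GMP minus LMPP 0.97 (adjusted p = 0.0113). Cebpe, a factor of late granulocyte maturation, had 29.5, 25.2, 21.4 and 18.9 TPM in GMP, 0.07, listed at 0, 5.29 and 1.96 TPM in CLP, and 0.51, 0.18, 11.98 and 1.65 TPM in LMPP. It was higher in GMP by 3.13 than in LMPP (adjusted p = 0.00214) and by 3.53 than in CLP (adjusted p = 0.00103), and its highest CLP and LMPP values stood in the same 2 libraries as those of Cybb. Among the factors called lower in GMP than in LMPP, the largest differences were -3.005 for Meis1 (adjusted p = 7.976e-04) and -2.49 for Hoxa10 (adjusted p = 5.939e-04), and HOXA10 is a known repressor of human CYBB in immature myeloid cells.

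Promoter sequences are shown because Spi1, whose product is a known regulator of these genes, differed between the types. RefSeq promoters (GRCm38.p6, 250 bases before to 50 bases from the annotated start, on the gene's strand) were matched for 3 of the 5 subunit genes; Ncf4 and Rac2 are named only. Each runs 5′ to 3′ in lower case, and capitals mark matches, on either strand, to GAGGAA (the ETS core favoured by PU.1), TTNNGNAA (the C/EBP type) or an ETS and IRF composite motif. They lie at chrX:9469275-9469574 for Cybb, chr8:122432891-122433190 for Cyba and chr5:134229576-134229875 for Ncf1, all on the minus strand. The RefSeq start of Cybb lies inside the GENCODE span given above, whose upstream end is base 9487771, so the annotated starts differ for that gene.
Cybb promoter: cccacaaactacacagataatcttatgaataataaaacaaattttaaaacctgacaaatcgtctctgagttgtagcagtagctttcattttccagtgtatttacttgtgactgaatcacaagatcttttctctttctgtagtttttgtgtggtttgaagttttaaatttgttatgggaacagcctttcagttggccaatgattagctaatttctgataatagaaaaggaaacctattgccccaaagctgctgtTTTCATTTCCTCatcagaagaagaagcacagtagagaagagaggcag
Cyba promoter: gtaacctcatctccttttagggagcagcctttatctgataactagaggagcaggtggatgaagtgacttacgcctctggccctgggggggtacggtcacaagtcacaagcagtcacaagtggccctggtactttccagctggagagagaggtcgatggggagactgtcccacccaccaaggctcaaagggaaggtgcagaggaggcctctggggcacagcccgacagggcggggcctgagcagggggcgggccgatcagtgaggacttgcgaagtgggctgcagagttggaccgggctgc
Ncf1 promoter: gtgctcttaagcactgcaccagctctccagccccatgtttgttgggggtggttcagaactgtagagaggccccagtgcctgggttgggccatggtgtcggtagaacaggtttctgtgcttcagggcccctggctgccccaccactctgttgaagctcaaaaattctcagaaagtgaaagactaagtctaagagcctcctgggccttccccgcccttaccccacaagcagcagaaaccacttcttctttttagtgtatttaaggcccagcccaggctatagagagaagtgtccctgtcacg

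The Cybb window holds GAGGAA on the opposite strand at bases 10 to 15 from the start, overlapping with the ETS and IRF composite on the same opposite strand at bases 4 to 13. The Cyba and Ncf1 windows hold none of the 3 motifs, which says only that these letters are not in these windows. Of 32851 mouse promoters of the same length, 28.3% hold GAGGAA, 40.7% TTNNGNAA and 2.72% the composite. A match is a description of the letters, not a measured binding site.

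Relatives of the oxidase were low. Of 9 other genes of the NOX and DUOX family, 2 were tested, Nox4 and Noxo1, and the 9 summed to 2.17 to 3.09 TPM in GMP, 3.37 to 5.40 TPM in CLP, and in LMPP to 4.73 to 9.10 TPM. Nox3, Duox2, Duoxa1 and Duoxa2 were listed at 0 in all libraries. Nox4, a constitutively active oxidase, was lower in GMP than in LMPP (log2 difference -1.17, limma adjusted p = 0.00359), with 1.17, 1.98, 1.80 and 2.68 TPM in GMP and 4.73, 3.33, 7.29 and 7.21 TPM in LMPP.

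Genes that act just before the oxidase showed no common direction. Of 8 tested Rac exchange factors and related GTPases, 2 were called higher in GMP than in LMPP and 2 lower, with a median of -0.12, and 2 higher and 3 lower in GMP than in CLP, with a median of 0.17. The shares of all genes called higher and lower were 7.62% and 21.3% against LMPP, and 9.96% and 13.9% against CLP. Rhog, a GTPase related to Rac, was higher in GMP by 0.77 than in LMPP (limma adjusted p = 0.00232) and by 0.72 than in CLP (adjusted p = 0.00379), and the exchange factor Tiam1 was higher in GMP than in LMPP by 1.01 (adjusted p = 0.00915). The exchange factor Prex1 was lower in GMP, with -0.78 against LMPP (limma adjusted p = 0.0272) and -0.74 against CLP (adjusted p = 0.0387). Those Prex1 calls were lost in 5 and 8 of 12 fits without 1 library. Vav2 was lower in GMP than in CLP (-0.72, limma adjusted p = 0.0177). In CLP against LMPP 1 was called, Vav3, lower in CLP (-0.90, limma adjusted p = 0.00873), with a median of -0.10, where 7.23% of all genes were called lower.

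Among 12 tested genes of activating signalling, 0 were higher and 3 lower in GMP than in LMPP (median -0.17, beside 7.62% and 21.3% of all genes). In CLP against LMPP 2 were higher and 3 lower (median -0.14, beside 2.8% and 7.23% of all genes). In GMP against CLP 3 were higher and 3 lower (median -0.14, beside 9.96% and 13.9% of all genes). Pak1, a kinase activated by Rac, was lower in CLP than in LMPP (-1.43, limma adjusted p = 8.367e-04) and higher in GMP than in CLP by 1.43 (adjusted p = 1.860e-04). Under median-ratio scaling the medians of the exchange factors were 0.12 for GMP minus LMPP and 0.07 for CLP minus LMPP, and those of the signalling genes 0.08 and 0.03, so their sign turned. The largest difference was that of Prkca, a protein kinase C, with -2.71 for GMP minus CLP (adjusted p = 2.502e-04).

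Antioxidant enzymes, which remove the oxidase's products, were called higher in GMP than in LMPP in 2 of 20 and lower in 1 (median 0.13, beside 7.62% and 21.3% of all genes). In CLP against LMPP 0 were higher and 1 lower (median -0.17, beside 2.8% and 7.23% of all genes). In GMP against CLP 5 were higher and 1 lower (median 0.21, beside 9.96% and 13.9% of all genes). Under median-ratio scaling the GMP minus LMPP count was 7 higher and 0 lower, and after rescaling without mitochondrial, ribosomal RNA and haemoglobin genes 2 higher and 4 lower. Gsr, glutathione reductase, which itself uses NADPH, had 149, 135, 125 and 136 TPM in GMP, 5.77, 6.29, 41.7 and 8.13 TPM in CLP, and 18.3, 24.2, 71.2 and 17.3 TPM in LMPP. GMP stood above both other types without overlap for Gsr, by 2.27 against LMPP (limma adjusted p = 0.00562) and by 3.54 against CLP (adjusted p = 3.877e-04). Of tested genes, 7.76% were so separated against LMPP and 9.12% against CLP.

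The sorted types were checked against their gate and lineage genes. Fcgr3, which encodes a protein seen by the GMP gate, was higher in GMP than in LMPP by 4.89 and than in CLP by 5.30, and Il7r was higher in CLP than in LMPP by 3.41 (limma adjusted p = 0.00123, 7.352e-04 and 2.527e-05). Fcgr3 still reached 34.8 and 35.1 TPM in replicate 1 of batch 2 in CLP and in LMPP. The CLP libraries of batch 2 went against their gate in Flt3, with 8.91 and 16.98 TPM beside 138 and 146 TPM in batch 1. The 4 matched primary granule genes were all called higher in GMP against either other type (medians 3.92 and 6.38), with sums of 20530 to 25440 TPM in GMP, 161 to 2026 TPM in CLP, and in LMPP of 1060 to 1676 TPM. Of 9 monocyte and macrophage markers 4 were called higher in GMP than in LMPP and 5 higher than in CLP, and 1 lower in CLP than in LMPP. Of the 12 neutrophil markers and 5 red cell markers 0 were called by limma in any comparison, and 0 had an unadjusted p under 0.05, with medians of -1.60 and -2.07 for GMP minus LMPP. These pooled values join batches of opposite sign, the neutrophil median for GMP minus LMPP being 1.93 in batch 1 alone and -4.84 in batch 2 alone. Of 7 tested dendritic cell markers 5 were lower in GMP than in LMPP, 6 lower in GMP than in CLP and 2 lower in CLP than in LMPP. The shares of all tested genes called higher and lower were 7.62% and 21.3% for GMP minus LMPP. They were 9.96% and 13.9% for GMP minus CLP, and 2.8% and 7.23% for CLP minus LMPP. Monocyte and granule genes thus moved with Cyba and Hvcn1 in both comparisons of GMP, and their part in those differences was not tested. For CLP minus LMPP the medians were -2.10 for the granule genes and -0.43 for the monocyte and macrophage markers, beside 0.61 for Hvcn1 and -0.07 for Cyba.

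Over 12 libraries 6774 tested genes averaged 10 TPM or more. Among them those with the most similar pattern over the 12 libraries were found by the root mean square difference between centred log2(TPM + 1) profiles, where 0 is an identical pattern. Cybb was nearest to Mcemp1 (0.74), followed by AB124611 (0.93), Fcnb (0.93), C3 (1.03) and Lyz2 (1.05); Fcnb encodes ficolin B and Lyz2 the lysozyme of myeloid cells. Ncf1 was nearest to Guk1 (0.28), Cd68 (0.31), Snx18 (0.31), Nfam1 (0.33) and Alox5ap (0.36), where Cd68 is on the monocyte and macrophage list. Cyba was nearest to Mocs1 (0.28), Mfsd14b (0.30), Flot2 (0.30), Ostm1 (0.31) and Ckap4 (0.31). Ncf4 was nearest to Cyb5a (0.25), Ganc (0.30), Vps25 (0.30), Arhgap1 (0.31) and Anxa7 (0.32), and Rac2 to Dynlt1a (0.19), Bcl7b (0.20), Inafm2 (0.20), Fis1 (0.20) and Necap2 (0.21). Between the members themselves the measure was 1.59 to 1.95 for Cybb against each of the others and 0.48 to 0.89 among the other 4, with Cyba and Ncf1 the closest pair. The measure grows with a gene's own spread over the 12 libraries. That SD was 2.06 for Cybb, 0.89 for Ncf1, 0.63 for Cyba, 0.50 for Ncf4 and 0.31 for Rac2. Values of different members therefore do not rank how alike the patterns are. The points share library and batch, so the likeness is a description.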

How the data were processed

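TPM was deposited by the authors for 38924 Ensembl gene IDs; Bowtie2 (2.2.0), RSEM (version 1.2.12), edgeR (version 3.10.0) and the mm10 build are named, without order or settings, per the submitters' processing notes. RSEM shares reads between similar transcripts, so genes with near copies are less certain; no source used here says whether counting used strand. TPM is relative to each library's total (999999 to 1000001) and keeps no depth, so no counting interval or detection floor is given. A further 17 columns of the table match none of these samples by name and were not used.

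Symbols and positions came from GENCODE (mm10) by Ensembl ID, matching 37607 IDs. Libraries were grouped by sample title. Genes reaching 1 TPM in 4 or more libraries were fitted with limma 3.58.1 (R 4.3.3, Python 3.11.15 elsewhere) on log2(TPM + 1), with type and additive batch terms and a variance trend, over all 12 libraries. A fit of 6 groups gave batch differences within a type and their contrasts. The fit was tested on simulated data. The 15 gene lists hold 138 entries, of which 137 were matched (Azu1 was not). The 5 members, the partners and the lists were chosen with earlier results of these data known. The text names all members and partners, up to 3 called genes of each other list with the largest difference, the 5 genes of most similar pattern per member, and, chosen after their values were seen, Flt3, Ly6g, Rpia and Pgls, the members behind small counts, Cebpe in single libraries and Spi1 in GMP against LMPP. Alternatives were another pseudocount, no filter, no batch term, only the 2 types compared, 2 other scalings, the replicate block, each batch alone, leaving out both CLP libraries of batch 2, leaving out the 2 haemoglobin-rich libraries, and leaving out each library in turn. One further gene of the complex is not reported here.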

Additional observations from a re-analysis of the deposited data

Results flagged for a closer look

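The highest or lowest of the 4 libraries of a type was compared with the rest for the subunit and partner genes and the sum of the 5 subunits, 33 sets in all. In 5 sets its gap to the nearest library, as a share of the whole range, exceeded Dixon's critical value for 4 libraries (shares of 0.851 to 0.976). For independent, normally distributed values chance gives about 1 in 20. These TPM values pool 2 batches and the sets share libraries, so that rate need not hold here. Cybb at 91.13 TPM in CLP and at 174.8 TPM in LMPP stood far above the other 3 libraries of the type, both in replicate 1 of batch 2, and the sum of the 5 subunits in the same LMPP library was 527.5 TPM. Those libraries also held 12560 and 27120 TPM of neutrophil markers, whose part was not tested. Ncf1 at 7.64 TPM in CLP batch 2 replicate 2 stood below the other CLP libraries, and Cybc1 at 22.34 TPM in GMP batch 1 replicate 2 stood below the other GMP libraries.

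Of 30 tests of whether a comparison of types differed between batches, 3 were called by limma. CLP minus LMPP was higher in batch 2 than in batch 1 by 0.6823 for Rac1 (adjusted p = 0.0260) and by 1.219 for Rap1a (adjusted p = 0.0153), where 8.58% of all tested genes were called in either direction. GMP minus CLP differed by -1.108 for Rap1a (adjusted p = 0.0255), where 5.48% were. Rap1a had 126.0 and 124.6 TPM in GMP, 177.8 and 228.4 TPM in CLP, and 145.2 and 112.5 TPM in LMPP of batch 2, against 59.5 and 68.3 TPM in GMP, 47.1 and 47.4 TPM in CLP, and 68.4 and 72.5 TPM in LMPP of batch 1.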

How the results depend on the processing

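Values below are log2 differences, and a bracket after a count holds the count reported above. The cause of each change was not tested. TPM keeps no depth, so what depth limits could not be given. Same-numbered libraries of batch 1 did not deviate together (correlations over genes of 0.0265, -0.0451 and -0.0634). Nor did those of GMP and CLP in batch 2 (-0.0477). LMPP of batch 2 holds replicates 1 and 3, so its likeness to same-numbered libraries was not tested. Replicate 1 of batch 2 in CLP and in LMPP shared high neutrophil and red cell marker sums. What a shared replicate number means is not stated. With the replicate block, in GMP minus LMPP, the call was lost for Cyba (0.92), and the sign turned for Cybc1 (-0.035). GMP minus LMPP with the block called 0 subunits higher (1), 1 partner higher (2), 595 genes higher (969) and 1619 genes lower (2707). With the replicate block, in CLP minus LMPP, the call was lost for Rac2 (0.65), and the sign turned for Rap1a (-0.16) and Arhgdib (-0.0895). CLP minus LMPP with the block called 0 subunits higher (1), 57 genes higher (356) and 155 genes lower (920). In batch 1 alone, in GMP minus LMPP, a call was gained for Cybb (3.25), Ncf1 (1.09) and Rac2 (0.54), and the sign turned for Cybc1 (-0.017). GMP minus LMPP in batch 1 called 4 subunits higher (1), beside 901 genes higher (969). In batch 1 alone, in CLP minus LMPP, the sign turned for Cyba (0.28), Ncf1 (0.51), Rac1 (-0.18), Rap1a (-0.57) and Arhgdib (-0.14). CLP minus LMPP in batch 1 called 1 partner lower (0) and 2 NADPH supply genes lower (0), beside 919 genes lower (920). In batch 1 alone, in GMP minus CLP, a call was gained for Cybb (2.33), and the sign turned for Rap1a (0.43). GMP minus CLP in batch 1 called 2 subunits higher (1), beside 1274 genes higher (1267). In batch 2 alone, in GMP minus LMPP, the call was lost for Cyba (0.42), and the sign turned for Cybb (-0.35) and Ncf4 (-0.35). GMP minus LMPP in batch 2 called 0 subunits higher (1), 0 partners higher (2), 2 NADPH supply genes higher (7), 324 genes higher (969) and 802 genes lower (2707). In batch 2 alone, in CLP minus LMPP, the call was lost for Rac2 (0.38), and the sign turned for Cybb (-0.70). CLP minus LMPP in batch 2 called 0 subunits higher (1), 609 genes higher (356) and 574 genes lower (920). In batch 2 alone, in GMP minus CLP, the call was lost for Cyba (0.84), and the sign turned for Rac1 (-0.16). GMP minus CLP in batch 2 called 0 subunits higher (1), 0 partners higher (2), 3 NADPH supply genes higher (6), 0 NADPH supply genes lower (1), 628 genes higher (1267) and 1056 genes lower (1773). Without the haemoglobin-rich pair, in GMP minus LMPP, a call was gained for Cybb (2.42) and Rac2 (0.44). GMP minus LMPP without the haemoglobin-rich pair called 3 subunits higher (1), beside 940 genes higher (969). Without the haemoglobin-rich pair, in CLP minus LMPP, the sign turned for Cyba (0.033) and Rap1a (-0.039). CLP minus LMPP without the haemoglobin-rich pair called 1 NADPH supply gene lower (0), 171 genes higher (356) and 742 genes lower (920). Without the haemoglobin-rich pair, in GMP minus CLP, a call was gained for Cybb (1.96) and Ncf1 (1.48). GMP minus CLP without the haemoglobin-rich pair called 3 subunits higher (1), beside 1454 genes higher (1267). Without CLP batch 2, in CLP minus LMPP, the sign turned for Cyba (0.051), Ncf1 (0.29), Rac1 (-0.14), Rap1a (-0.54) and Arhgdib (-0.20). CLP minus LMPP without CLP batch 2 called 1 partner lower (0) and 1 NADPH supply gene lower (0), beside 652 genes lower (920). Without CLP batch 2, in GMP minus CLP, the call was lost for Cyba (0.82), and the sign turned for Rap1a (0.45). GMP minus CLP without CLP batch 2 called 0 subunits higher (1) and 4 partners higher (2), beside 1452 genes higher (1267). GMP minus LMPP without CLP batch 2 called 1478 genes higher (969). Under median-ratio scaling, in GMP minus LMPP, a call was gained for Rac2 (0.58), and the sign turned for Rap1a (0.18). GMP minus LMPP under median-ratio scaling called 2 subunits higher (1), 1869 genes higher (969) and 1717 genes lower (2707). Under median-ratio scaling, in CLP minus LMPP, the sign turned for Cyba (0.098). CLP minus LMPP under median-ratio scaling called 1 partner higher (0), 602 genes higher (356) and 560 genes lower (920). Under median-ratio scaling, in batch 2 minus batch 1 within CLP, a call was gained for Rac2 (-0.44), and the sign turned for Cyba (-0.16). Under median-ratio scaling, in GMP minus CLP, batch 2 minus batch 1, the sign turned for Rac2 (-0.069). After rescaling without mitochondrial, ribosomal RNA and haemoglobin genes, in GMP minus LMPP, the call was lost for Cyba (0.76), and the sign turned for Ncf4 (-0.062) and Cybc1 (-0.053). GMP minus LMPP after rescaling called 0 subunits higher (1), beside 757 genes higher (969). After rescaling, in CLP minus LMPP, the sign turned for Rap1a (-0.038) and Arhgdib (-0.036). CLP minus LMPP after rescaling called 1 NADPH supply gene lower (0), beside 1298 genes lower (920). GMP minus CLP after rescaling called 1 partner lower (0), beside 1895 genes lower (1773). At a pseudocount of 0.1 TPM, in GMP minus LMPP, the call was lost for Cyba (0.89). GMP minus LMPP at pseudocount 0.1 called 0 subunits higher (1), beside 888 genes higher (969). GMP minus CLP at pseudocount 0.1 called 1 partner lower (0), beside 1821 genes lower (1773). With no low-value filter, in GMP minus LMPP, the call was lost for Cyba (0.87). GMP minus LMPP with no low-value filter called 0 subunits higher (1) and 1 partner higher (2), beside 876 of 21797 genes higher. With no low-value filter, in GMP minus CLP, the call was lost for Cyba (0.94). GMP minus CLP with no low-value filter called 0 subunits higher (1), 1 partner higher (2) and 1 partner lower (0). Of 21797 genes there, 1141 were higher and 1477 lower. With no low-value filter, in batch 2 minus batch 1 within CLP, the call was lost for Cybb (3.04). With no low-value filter, in batch 2 minus batch 1 within LMPP, the call was lost for Cybb (4.65). CLP minus LMPP with no low-value filter called 1 partner higher (0), beside 255 of 21797 genes higher. Without a batch term, in GMP minus LMPP, the call was lost for Cyba (0.87). GMP minus LMPP without a batch term called 0 subunits higher (1), 1 partner higher (2), 4 NADPH supply genes higher (7) and 540 genes higher (969). Without a batch term, in GMP minus CLP, the call was lost for Cyba (0.94). GMP minus CLP without a batch term called 0 subunits higher (1), 1 partner higher (2), 0 NADPH supply genes lower (1) and 1079 genes lower (1773). CLP minus LMPP without a batch term called 0 NADPH supply genes higher (1), 125 genes higher (356) and 484 genes lower (920). With only the 2 types compared, in CLP minus LMPP, the call was lost for Rac2 (0.62). CLP minus LMPP with only those 2 types called 0 subunits higher (1), 166 genes higher (356) and 370 genes lower (920). GMP minus LMPP with only those 2 types called 1454 genes higher (969).

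Leaving out each library in turn, with the lone library of a type and batch assumed to vary like the rest, gave GMP minus LMPP differences of 1.09 to 2.34 for Cybb, 0.68 to 1.18 for Cyba, -0.20 to 0.27 for Ncf4, 0.25 to 0.44 for Rac2 and -0.24 to 0.014 for Rap1a. Subunits called higher there numbered 0 to 3 and partners 1 to 2, beside 673 to 1250 of all genes. CLP minus LMPP gave -0.39 to 1.0 for Cybb, -0.26 to 0.23 for Cyba, 0.56 to 0.74 for Rac2, -0.17 to 0.19 for Rap1a and -0.087 to 0.16 for Arhgdib. Its counts were 0 to 1 subunit higher, 0 to 1 NADPH supply gene lower, 195 to 496 genes higher and 460 to 990 genes lower. GMP minus CLP gave 0.70 to 1.13 for Cyba, -0.0019 to 0.18 for Rac1 and -0.28 to 0.085 for Rap1a, with 0 to 1 subunit higher, 1 to 2 partners higher and 0 to 1 NADPH supply gene lower. All genes called there numbered 898 to 1439 higher and 1203 to 1797 lower. Batch 2 minus batch 1 within CLP gave 1.77 to 4.31 for Cybb, -0.54 to 0.62 for Cyba, -2.07 to 0.018 for Ncf1 and -1.05 to 0.51 for Ncf4, and within LMPP 3.15 to 6.16 for Cybb and 0.74 to 1.74 for Ncf1. Without CLP batch 2 replicate 1 the Ncf1 and Ncf4 differences within CLP were called (limma adjusted p = 0.00237 and 0.0374), and without CLP batch 2 replicate 2 both turned positive. The CLP minus LMPP difference between batches was -3.30 to -1.22 for Ncf1 and -1.47 to 0.077 for Ncf4. The GMP minus CLP difference between batches was -0.79 to 0.36 for Cyba, 0.32 to 2.40 for Ncf1, -0.89 to 0.66 for Ncf4 and -0.071 to 0.12 for Rac2.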
